A study of Rattus norvegicus with 16 samples.

Results

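The interferon regulatory factor and *Stat* genes *Irf1*, *Irf2*, *Irf3*, *Irf5*, *Irf7*, *Irf8*, *Irf9*, *Stat2* and *Stat3* were followed in rat PCCl3 thyroid cells after silencing of *Pax8*. Array probes were assigned to these 9 genes through the RefSeq accession that the array files give for each probe. Of the 9 genes, 7 had a probe, and these 7 genes were covered by 8 of the 41012 probes on the array. *Stat3* had 2 probes, the other 6 genes had 1 each, and no accession on the array led to *Irf5* or *Irf8*.

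Interferon regulatory factors (IRFs) and STATs are transcription factors that carry the interferon response. In resting cells IRF3 and low amounts of IRF7 wait in the cytoplasm until sensors of foreign nucleic acid trigger their phosphorylation, after which they enter the nucleus and switch on interferon genes. Secreted interferon binds receptors coupled to Janus kinases, which phosphorylate STATs, and STAT2 together with IRF9 forms part of the complex ISGF3 that binds the interferon-stimulated response element (ISRE) of target genes. IRF1 activates and IRF2 mostly restrains such targets, and STAT3 mainly transmits signals of the interleukin 6 family. *Irf7* and *Irf9* are themselves interferon-induced, which makes them parts of a feed-forward loop.

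PCCl3 is a differentiated follicular cell line from Fischer rat thyroid, grown in medium with thyrotropin and insulin. Cells transfected with *Pax8* siRNA (siPax8) were compared on Agilent 2-colour arrays with wild type cells (wt) and, on other arrays, with cells that received a scrambled siRNA (siScramble). Both siRNAs were used at 10 ng/ml with a Lipofectamine reagent, and RNA was taken after 48 hours. For the wt cells the sources differ, since the labels say wild type, the methods list treatment with lipofectamine, and the caption of the study's immunoblot calls them not transfected. Each comparison comprised 4 biological replicates, each hybridized with siPax8 in Cy5 on one array and in Cy3 on another, and the design scheme names the same siPax8 samples for both comparisons. Values are log2 ratios of siPax8 over control, averaged over the dye swap, so that a positive value is a higher level in siPax8 cells. This direction follows the dye labels. Limma was used for all tests, with p-values adjusted by Benjamini-Hochberg over the 41012 probes and a threshold of 0.005.

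The arrays had between 52.0% and 60.8% of their spots well above background in either channel. *Pax8* itself had a log2 ratio of -0.56 ± 0.24 (SD, n = 4; limma adjusted p = 0.000472) to wt and of -0.25 ± 0.25 (SD, n = 4; limma adjusted p = 0.143) to siScramble cells, and the difference between these ratios, -0.32, did not pass the threshold (limma adjusted p = 0.183). Of 10 follicular cell markers 9 were measured, all of them well above background on all 8 wt arrays. Of these, 8 passed the threshold as lower in siPax8 than in wt cells, where 9.46% of all genes with a symbol did. Against siScramble cells 1 of the 9, thyroglobulin, passed as lower, where 1.31% of all genes did. At an unadjusted limma p under 0.05, 7 of the 9 were lower against siScramble cells, where 11.9% of all probes were. Of 6 measured myeloid markers 3 were well above background on every wt array, *Spi1* and *Itgam* on no array, and 1, *Cd68*, rose against wt by a log2 ratio of 0.30 (limma adjusted p = 0.000797), with list medians of 0.06 against wt and 0.05 against siScramble cells. The part of such cells in the values below was not tested. None of the 3 lymphocyte and 2 endothelial markers measured was well above background on all arrays of any condition, and 1 of 4 fibroblast markers was. In RNA from whole cultures, a change in the number of expressing cells and a change in RNA per cell cannot be told apart.

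Promoter sequences of 8 of the 9 genes were available from RefSeq (build GRCr8), each from 250 bases before the annotated start to 50 bases after it, and were searched on both strands for 2 motifs. The first was the ISRE core GAAANNGAAA, to which IRFs and ISGF3 bind, and the second the gamma-activated site (GAS) TTCNNNGAA, to which STAT dimers bind. The ISRE core was found in 1 of the 8 promoters, that of *Irf7*, and in 3.92% of all 33469 promoters. A GAS was found in 3 of the 8, those of *Irf1*, *Irf8* and *Irf9*, and in 8.87% of all promoters. Of 44 promoters of interferon-induced genes, 30 held the ISRE core and 12 a GAS. The promoters of *Irf3*, *Irf5*, *Stat2* and *Stat3* held neither motif in this window. The 4 promoters below belong to the genes with the largest changes (*Irf7*, *Irf9*), to a gene with a GAS that was not called in either comparison (*Irf1*), and to the partner of IRF9 (*Stat2*). They are written 5′ to 3′ on the strand of the gene, and capitals mark the motif matches.
Irf7 promoter: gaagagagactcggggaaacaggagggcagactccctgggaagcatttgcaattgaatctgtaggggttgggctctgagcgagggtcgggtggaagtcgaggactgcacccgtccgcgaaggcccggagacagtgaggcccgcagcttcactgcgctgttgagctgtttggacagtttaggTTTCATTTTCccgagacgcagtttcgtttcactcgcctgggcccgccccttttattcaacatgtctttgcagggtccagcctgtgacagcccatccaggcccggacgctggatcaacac
Irf9 promoter: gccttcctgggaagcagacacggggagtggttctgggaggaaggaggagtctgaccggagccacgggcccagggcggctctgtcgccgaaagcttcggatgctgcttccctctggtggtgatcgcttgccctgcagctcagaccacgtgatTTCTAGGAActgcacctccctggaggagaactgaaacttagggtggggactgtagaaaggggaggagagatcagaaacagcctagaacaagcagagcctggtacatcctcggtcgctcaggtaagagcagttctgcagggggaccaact
Irf1 promoter: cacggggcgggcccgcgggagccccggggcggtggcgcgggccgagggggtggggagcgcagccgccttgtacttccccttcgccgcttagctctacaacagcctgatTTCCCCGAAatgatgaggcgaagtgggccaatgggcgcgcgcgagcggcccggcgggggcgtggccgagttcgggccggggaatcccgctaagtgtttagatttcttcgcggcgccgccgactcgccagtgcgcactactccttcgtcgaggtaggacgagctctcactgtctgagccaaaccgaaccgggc
Stat2 promoter: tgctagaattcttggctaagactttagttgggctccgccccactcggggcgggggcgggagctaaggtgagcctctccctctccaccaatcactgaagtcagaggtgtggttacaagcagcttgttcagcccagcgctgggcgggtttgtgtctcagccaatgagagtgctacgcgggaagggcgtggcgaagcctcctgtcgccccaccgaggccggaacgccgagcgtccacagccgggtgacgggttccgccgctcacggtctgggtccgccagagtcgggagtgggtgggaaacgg

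In *Irf7*, at chr1:205799974-205800273 on the minus strand, the ISRE core lay on the opposite strand from 69 to 60 bases before the start. In *Irf9*, at chr15:33065586-33065885 on the plus strand, the GAS lay from 99 to 91 bases before the start. The *Irf1* promoter, at chr10:38417685-38417984 on the plus strand, had its GAS from 142 to 134 bases before the start. That of *Irf8* held GAS matches beginning 180 and 161 bases before the start. The *Stat2* promoter shown was chr7:1286840-1287139 on the plus strand. These matches describe the letters of the sequence, and binding was not measured in the arrays.

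**Figure D1:**
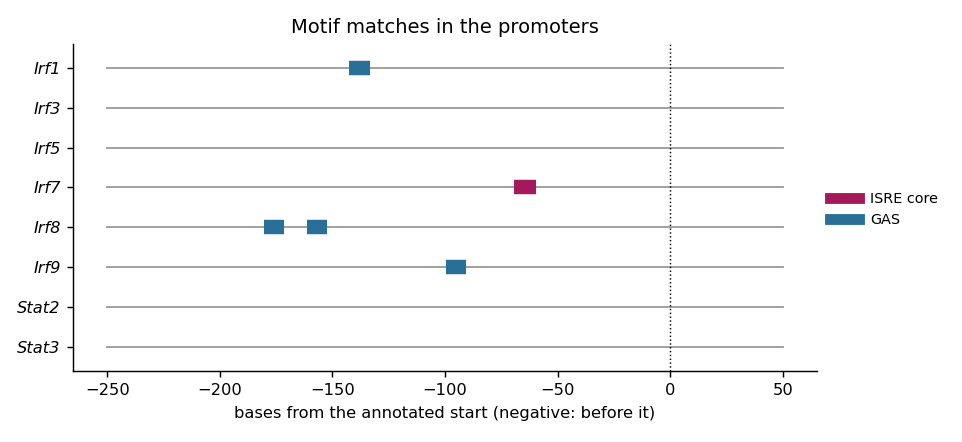
Motif matches in the 8 promoters. The horizontal axis is the distance in bases from the annotated start (dotted line), each grey line is 1 promoter, and boxes mark the ISRE core and GAS matches. The ISRE core of *Irf7* lies closest to the start, and *Irf8* is the only promoter of the 8 with 2 matches.

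The largest changes were those of *Irf7* and *Irf9*. Against wt cells, *Irf7* was 5.15-fold and *Irf9* 3.57-fold higher in siPax8 cells. *Irf2*, *Irf3* and *Stat2* rose by smaller amounts, between 1.24-fold and 1.43-fold with the processing used here, and no gene of the 7 was lower. Against siScramble cells, *Irf7* alone passed the threshold, with a 1.67-fold higher level. In all, 5 of the 7 genes were called higher against wt cells, compared with 7.04% of all probes called higher and 8.23% called lower, and 1 of the 7 was called higher against siScramble cells, compared with 1.22% of probes higher and 0.897% lower. At an unadjusted p under 0.05, limma gave 6 of the 7 genes as higher and none as lower in each comparison, where 15.5% and 8.57% of all probes were higher and 18.3% and 11.9% lower against wt and siScramble cells. A gene counted as called when each of its probes passed in the same direction. By this rule 7.26% of all genes with a symbol were called higher and 9.46% lower against wt cells. Against siScramble cells these shares were 1.67% and 1.31%. The median log2 ratio of the 7 genes was 0.41 against wt and 0.13 against siScramble cells, while over all 8899 genes with a symbol it was -0.0052 and -0.0034.

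*Irf7* (A_44_P1039994, NM_001033691) encodes the factor that amplifies type I interferon production. Its log2 ratios to wt cells were 2.48, 2.39, 2.30 and 2.29 in replicates 1 to 4, with a mean of 2.36 ± 0.09 (SD, n = 4; limma adjusted p = 7.42e-09; 95% interval for this probe alone 2.28 to 2.45). Its log2 ratios to siScramble cells were 0.86, 0.84, 0.64 and 0.63, with a mean of 0.74 ± 0.12 (SD, n = 4; limma adjusted p = 0.000334; 95% interval 0.63 to 0.85). All 4 replicates were high in both comparisons, and the lowest ratio to wt exceeded the highest ratio to siScramble cells. With siPax8 in Cy5 and in Cy3 the ratio was 2.52 and 2.20 against wt and 0.84 and 0.64 against siScramble cells. Within the 4 slides, each of which held 2 arrays of each comparison, it lay between 2.34 and 2.41 and between 0.68 and 0.81. In the intensities processed by Agilent's software the rise against siScramble cells kept its size but missed the threshold (log2 ratio 0.73, limma adjusted p = 0.0203).

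The normalized log2 intensities of the *Irf7* probe were 11.00, 10.83, 10.76 and 10.94 in wt cells. In siScramble cells they were 12.61, 12.40, 12.51 and 12.60. The siPax8 samples gave 13.47, 13.21, 13.07 and 13.23 on the arrays with wt and 13.47, 13.24, 13.15 and 13.23 on those with siScramble cells. The siPax8 readings thus nearly coincided between both sets of arrays, the 3 conditions did not overlap, and the step from wt to siScramble cells was larger than the step from siScramble to siPax8 cells.

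*Irf9* (A_44_P346959, NM_001012041) encodes the DNA-binding subunit of ISGF3. Its log2 ratios to wt cells were 1.99, 1.97, 1.79 and 1.59, with a mean of 1.84 ± 0.19 (SD, n = 4; limma adjusted p = 2.05e-07; 95% interval 1.70 to 1.97). Its log2 ratios to siScramble cells were 0.34, 0.36, 0.10 and 0.04, with a mean of 0.21 ± 0.16 (SD, n = 4; limma adjusted p = 0.0780; 95% interval 0.07 to 0.35). All replicates were above 0 in both comparisons, but replicates 3 and 4 were close to 0 against siScramble cells. In log2 intensity the probe read 8.08, 7.97, 8.01 and 8.32 in wt cells. It read 9.79, 9.58, 9.74 and 9.82 in siScramble cells. The siPax8 samples read 10.08, 9.93, 9.80 and 9.91 on the arrays with wt and 10.13, 9.94, 9.84 and 9.85 on those with siScramble cells. The wt values stood far below the rest, whereas the siScramble values reached up to the siPax8 values, overlapping with those from the arrays with wt and lying just below those from their own arrays. Replicates 1 and 2 had the higher *Irf1*, *Irf7*, *Irf9* and *Stat2* ratios in both comparisons, whereas *Irf2*, *Irf3* and the *Stat3* probes did not show this split. Replicates 1 and 2 also had the lower *Pax8* ratios to siScramble cells, at -0.58 and -0.29 compared with -0.12 and -0.01 in replicates 3 and 4. The *Pax8* ratios to wt cells, -0.84, -0.57, -0.59 and -0.26 in replicates 1 to 4, did not separate the replicates in this way. The part of the remaining *Pax8* level in these differences was not tested.

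**Figure D2:**
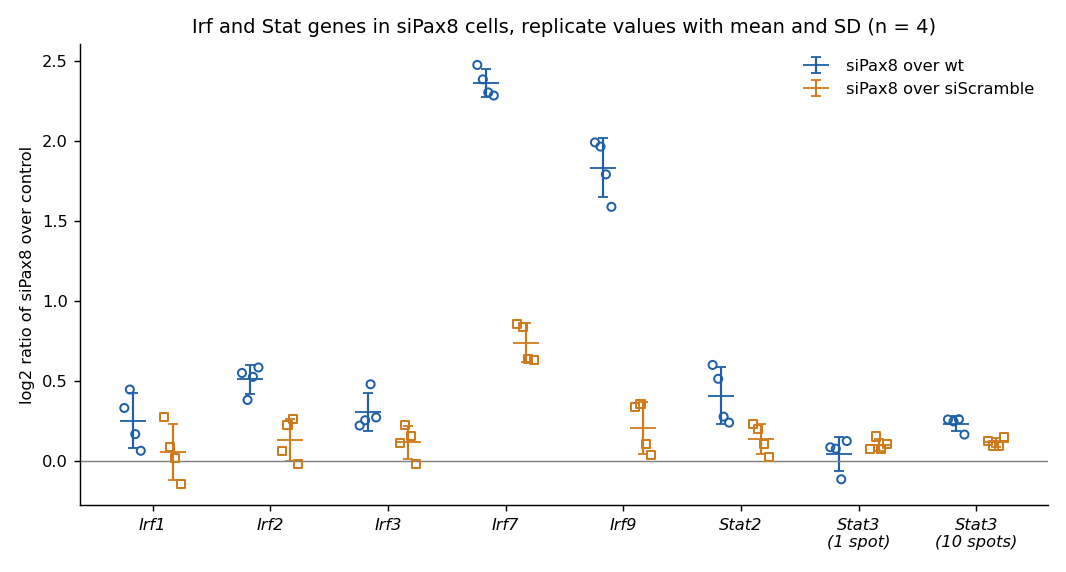
Log2 ratios of siPax8 over wt (blue circles) and over siScramble cells (orange squares) for the 8 probes of the 7 genes. Each symbol is 1 replicate, and bars give the mean and SD of 4. *Irf7* and *Irf9* lie at means of 2.36 and 1.84 against wt cells, and *Irf7* alone lies clearly above the other genes against siScramble cells, at 0.74.

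*Stat2* (A_44_P487798, NM_001011905) encodes the STAT that gives ISGF3 its transactivating domain. Its log2 ratios to wt cells were 0.60, 0.51, 0.28 and 0.24, with a mean of 0.41 ± 0.18 (SD, n = 4; limma adjusted p = 0.000772). Its ratios to siScramble cells were 0.23, 0.20, 0.10 and 0.02, with a mean of 0.14 ± 0.09 (SD, n = 4; limma adjusted p = 0.0783; 95% interval 0.05 to 0.23). All 8 dye-averaged ratios were above 0, and the groups did not overlap, the lowest ratio to wt lying just above the highest ratio to siScramble cells. With siPax8 in Cy5 and in Cy3 the ratio to siScramble cells was 0.01 and 0.26, and 2 of these 8 arrays were below 0. The rise against wt cells missed the threshold without replicate 2 (0.37, limma adjusted p = 0.00752) and in the intensities processed by Agilent's software (0.52, limma adjusted p = 0.0259).

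*Irf2* (A_44_P466417, NM_001047086), the factor known mostly as an antagonist of IRF1, had log2 ratios to wt cells of 0.55, 0.38, 0.53 and 0.59, with a mean of 0.51 ± 0.09 (SD, n = 4; limma adjusted p = 1.62e-05). Its ratios to siScramble cells were 0.06, 0.23, 0.26 and -0.02, with a mean of 0.13 ± 0.13 (SD, n = 4; limma adjusted p = 0.183; 95% interval 0.02 to 0.25). *Irf2* was higher than in wt cells in every replicate and showed no uniform direction against siScramble cells. In the intensities processed by Agilent's software its ratio to wt was 1.26 (limma adjusted p = 0.00232), so the size of the rise depended on the processing.

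*Irf3* (A_44_P1003825, NM_001006969) encodes the constitutively present factor that starts interferon beta transcription. Its log2 ratios to wt cells were 0.22, 0.26, 0.48 and 0.27, with a mean of 0.31 ± 0.12 (SD, n = 4; limma adjusted p = 0.000758). Its ratios to siScramble cells were 0.11, 0.22, 0.16 and -0.02, with a mean of 0.12 ± 0.10 (SD, n = 4; limma adjusted p = 0.151; 95% interval 0.02 to 0.21). Replicate 3 was the highest against wt cells. The rise against wt was short of the threshold with siPax8 in Cy3 alone (0.30, limma adjusted p = 0.00574) and in the intensities processed by Agilent's software (0.32, limma adjusted p = 0.0122).

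*Irf1* (A_44_P306602, NM_012591), an early target of interferon gamma signalling, had log2 ratios to wt cells of 0.33, 0.45, 0.17 and 0.06, with a mean of 0.25 ± 0.17 (SD, n = 4; limma adjusted p = 0.00918; 95% interval 0.12 to 0.38). Its ratios to siScramble cells were 0.28, 0.09, 0.02 and -0.15, with a mean of 0.06 ± 0.17 (SD, n = 4; limma adjusted p = 0.712; 95% interval -0.09 to 0.21). Replicate 4 was the lowest in both comparisons, and the ratios to the controls overlapped. It did not pass the threshold against wt cells with the replicates averaged, and passed it when the 8 arrays were fitted with the replicate as a block (limma adjusted p = 0.00439).

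*Stat3* (NM_012747), the STAT of the interleukin 6 family, was measured by probe A_44_P787936, which lay on the array in 10 copies, and by A_44_P381881, which lay there once. The former gave log2 ratios to wt of 0.26, 0.25, 0.26 and 0.17, with a mean of 0.23 ± 0.05 (SD, n = 4; limma adjusted p = 0.000463). The latter gave 0.09, 0.08, -0.11 and 0.13, with a mean of 0.04 ± 0.11 (SD, n = 4; limma adjusted p = 0.562; 95% interval -0.05 to 0.14). The probes therefore disagreed, and *Stat3* was not called. The SD over the 10 copies on an array was between 0.03 and 0.15 with a median of 0.05, and averaging them reduces the error of this probe only. Against siScramble cells the probes gave 0.12 ± 0.03 (SD, n = 4; limma adjusted p = 0.0330) and 0.10 ± 0.04 (SD, n = 4; limma adjusted p = 0.0642), all 8 dye-averaged values being above 0 and no value past the threshold. There the single-copy probe was above 0 on 5 arrays and below 0 on 3. Against wt cells it had 0.19 with siPax8 in Cy5 and -0.10 with siPax8 in Cy3.

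**Figure D3:**
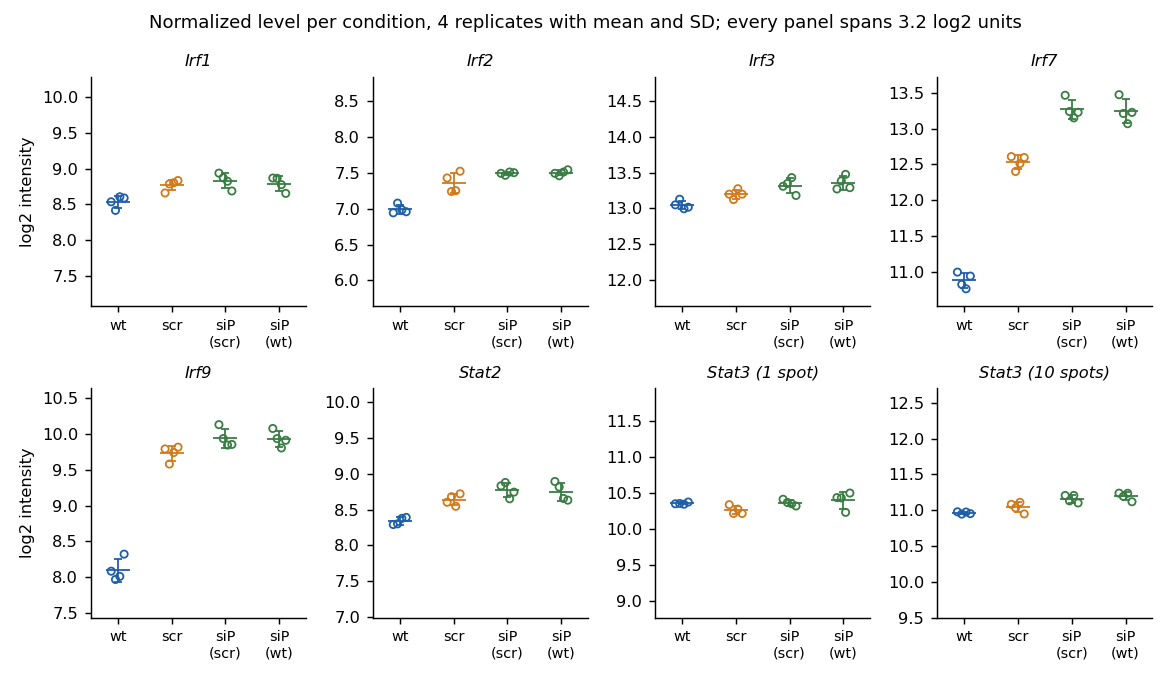
Normalized log2 intensity of each probe in wt cells (blue), siScramble cells (orange, scr) and siPax8 cells (green, siP), the latter once from the arrays with siScramble (scr) and once from those with wt cells (wt). Circles are the 4 replicates and bars their mean and SD. Levels may be compared within a panel but not between panels, which are different probes. For *Irf9* the siScramble mean of 9.73 lies near the siPax8 mean of 9.94 and far from the wt mean of 8.10.

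Whether the genes moved differently against both controls was tested by limma on the difference between the log2 ratio to wt and that to siScramble cells. With the siPax8 samples shared as in the design scheme, this difference is the log2 ratio of siScramble over wt cells, taken through siPax8. It was 1.62 for *Irf7* (limma adjusted p = 5.97e-07; 95% interval 1.48 to 1.76), 1.63 for *Irf9* (limma adjusted p = 5.47e-06; 95% interval 1.41 to 1.84) and 0.38 for *Irf2* (limma adjusted p = 0.00495; 95% interval 0.23 to 0.53). These 3 of the 7 genes were called, all with the larger ratio against wt cells, compared with 1.65% of all probes in this direction and 1.78% in the other. Counted by gene, the shares over all genes with a symbol were 1.78% and 2.79%. *Irf7* and *Irf9* were thus 3.08-fold and 3.09-fold higher in siScramble than in wt cells. The *Irf2* call lay just under the threshold, and it was lost when any 1 of the 4 replicates was left out (differences of 0.30 to 0.45, limma adjusted p up to 0.0322) and in the intensities processed by Agilent's software (0.89, limma adjusted p = 0.0175).

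For *Stat2* the difference was 0.27 (limma adjusted p = 0.0606; 95% interval 0.09 to 0.45), and it passed the threshold when same-numbered replicates of the comparisons were paired with a replicate block (limma adjusted p = 0.00318). That pairing was not borne out for replicates 2 and 3, which correlated better with another number. The difference was 0.19 for *Irf3* (limma adjusted p = 0.103; 95% interval 0.05 to 0.33) and 0.19 for *Irf1* (limma adjusted p = 0.279; 95% interval -0.02 to 0.41). The *Stat3* probes gave 0.12 (limma adjusted p = 0.0730) and -0.06 (limma adjusted p = 0.618). In mean level, 7 of the 8 probes had the order wt, siScramble, siPax8 from low to high, the exception being the single-copy *Stat3* probe. In this order the step from siScramble to siPax8 cells passed the threshold for *Irf7* alone, and the step from wt to siScramble cells for *Irf2*, *Irf7* and *Irf9*, joined by *Stat2* with the replicate block. For 5 of the 8 probes all 4 ratios to wt exceeded all 4 ratios to siScramble cells. The shares of all probes with this order or this separation were not determined, so both counts only describe these probes.

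**Figure D4:**
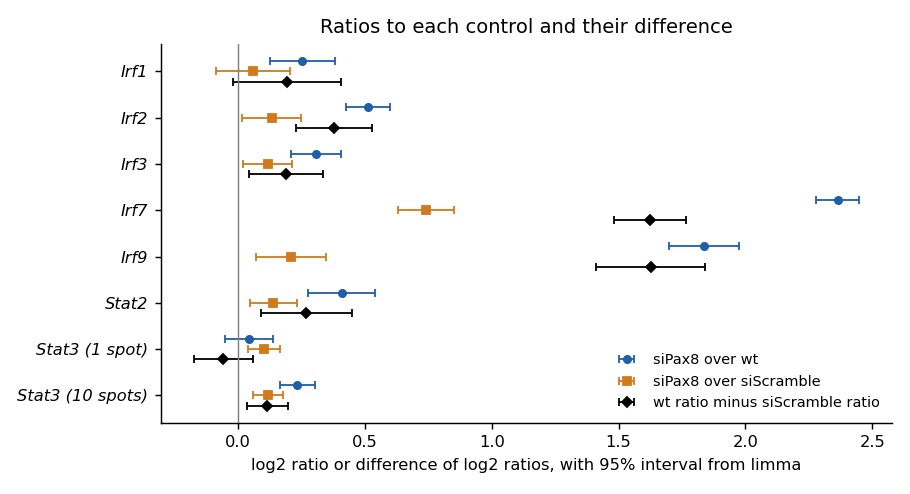
Mean log2 ratio to each control and their difference, with 95% intervals from limma that are not adjusted for the number of probes. For *Irf7* and *Irf9* the differences (black) of 1.62 and 1.63 are alike, while the ratio to siScramble cells (orange) is 0.74 for *Irf7* and 0.21 for *Irf9*.

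The study's own list of changed probes assigns further probes, designed on expressed sequence tags, to 3 of the genes. Because that list was chosen on these arrays, their values are a description without a test. Probe A_44_P444614, listed for *Irf7*, had log2 ratios to wt of 0.43, 0.43, 0.38 and 0.41 and a mean ratio of 0.14 to siScramble cells, and it was well above background on 1 of 8 arrays in wt, but on all 8 in siScramble and in siPax8 cells. Its companion A_44_P444610 was not well above background on any wt array and read higher in siPax8 than in wt cells on all 8 arrays. With wt levels at or near the background, the size of the ratio to wt cells of either probe is only a lower limit and cannot be set against that of the main *Irf7* probe. Against siScramble cells A_44_P444610 had a mean ratio of 0.10, with replicate 4 at -0.10, and was well above background on 2 of 8 siScramble arrays. Both ratios to siScramble cells were below the 0.74 of the main probe, on which the *Irf7* call against siScramble cells rests. Both probes were dim, with mean log2 intensities of 6.62 (A_44_P444610) and 6.82 (A_44_P444614) in siScramble cells, where the main probe read 12.53. The size of these ratios can therefore not be set against that of the main probe either. Probe A_44_P620591, listed for *Irf8*, a factor best known from myeloid and B cells, gave -0.51, -0.64, -0.54 and -0.48 against wt and a mean of -0.18 ± 0.11 (SD, n = 4) against siScramble cells. Of all probes connected with the group it was the only one with lower values in siPax8 cells in every replicate of both comparisons. Probe A_44_P803484, listed for *Stat2*, gave 0.61, 0.38, 0.46 and 0.39 against wt, with a mean of 0.46 beside 0.41 for the main probe. Against siScramble cells it gave 0.44, 0.21, -0.05 and -0.02, with a mean of 0.14 ± 0.23 (SD, n = 4). Unlike those of the main *Stat2* probe, its dye-averaged ratios to the controls overlapped and were not all above 0. With siPax8 in Cy5 and in Cy3 its ratio to siScramble cells was 0.02 and 0.27.

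The genes around these factors were grouped by their place in the pathway. Among 9 interferon ligand genes, *Ifnb1* and *Ifng* were measured. *Ifnb1*, interferon beta, had log2 ratios to wt of 0.35, 0.37, 0.38 and 0.46, with a mean of 0.39 ± 0.05 (SD, n = 4; limma adjusted p = 2.32e-05), and was well above background on 1 of 8 arrays in wt but on all 8 in siScramble and in siPax8 cells. Its level in wt cells thus lay near the background, which limits the size of this ratio. Against siScramble cells its ratio was -0.02 ± 0.11 (SD, n = 4; limma adjusted p = 0.913), and the difference between the comparisons, with the same limit, was 0.41 (limma adjusted p = 0.000879). *Ifng* was not well above background on any array. Of 6 receptor genes *Ifngr1* alone was measured, with 0.10 and 0.04 and no call.

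Of 4 Janus kinases, *Jak2* rose in both comparisons, with log2 ratios of 0.64 ± 0.05 (SD, n = 4; limma adjusted p = 1.30e-06) to wt and 0.47 ± 0.09 (SD, n = 4; limma adjusted p = 0.000787) to siScramble cells. *Jak3*, the other one measured, had ratios of -0.07 and 0.00063. Of the remaining *Irf* and *Stat* related genes 5 were measured. *Stat5a*, which transmits prolactin and growth hormone signals, fell in both comparisons, by 0.39 and 0.48 on the log2 scale. Its close relative *Stat5b*, next to *Stat5a* and *Stat3* on the chromosome, fell by 0.23 against wt cells and had -0.15 against siScramble cells, and cross-hybridization between the pair was not tested. *Irf2bpl* rose by 0.42 against wt and had 0.49 against siScramble cells (limma adjusted p = 0.0222), while *Stat4* and *Stat6* were not called. Neither *Mavs* nor *Myd88*, the 2 measured of 12 kinases and adaptors that activate IRFs, was called in either comparison, nor was either past an unadjusted limma p of 0.05.

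Of 16 negative regulators 10 were measured. Against wt cells 1 rose and 2 fell (10% and 20% of the 10), where 7.26% of all genes with a symbol rose and 9.46% fell. Against siScramble cells none was called by limma, although before adjustment 5 had a limma p under 0.05, 3 with higher and 2 with lower values. At that limit 8.57% of all probes were higher and 11.9% lower against siScramble cells. *Usp18*, an interferon-induced protease that damps receptor signalling, had log2 ratios to wt of 1.83 and 2.55 with its 2 probes (limma adjusted p = 3.85e-07 and 1.30e-07) and to siScramble cells of 0.41 and 0.53 (limma adjusted p = 0.0334 and 0.0191). *Socs1*, another feedback inhibitor, went the other way, at -0.32 (limma adjusted p = 0.000101) against wt cells, as did *Pias2*, at -0.60. *Socs3*, a well known STAT3 target and inhibitor, had -0.08 and 0.01.

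Of 17 receptors, ligands and targets of the STAT3 pathway 16 were measured, with medians of 0.08 and 0.03. Against wt cells 5 rose, *Vegfa*, *Junb*, *Mcl1*, *Ccnd1* and *Myc*, by 0.24 to 0.56, and 2 fell, *Hp* by 0.84 and *Lifr* by 0.19. These are 31.2% and 12.5% of the 16, beside the same shares of 7.26% and 9.46% over all genes. Against siScramble cells *Junb* alone was called, at 0.25 (limma adjusted p = 0.00498). The acute phase gene *Hp*, haptoglobin, had the largest change of the list against wt cells, a lower level in siPax8 cells, and -0.11 against siScramble cells (limma adjusted p = 0.0656). The receptors *Il6st* and *Il6r* had ratios between -0.02 and 0.08 with no call.

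Of 54 interferon-induced genes 33 were measured. Against wt cells 25 rose and none fell by limma (2 were lower at an unadjusted p under 0.05), with a median of 0.65, where 7.26% of all genes with a symbol rose and 9.46% fell. Against siScramble cells *Gbp2*, *Oasl2*, *Irgm* and *B2m* rose and *Ccl5* fell, with a median of 0.19, where 1.67% of all genes rose and 1.31% fell. At an unadjusted limma p under 0.05, 22 of the 33 were higher and 2 lower against siScramble cells, where 8.57% of all probes were higher and 11.9% lower. At the same limit 28 were higher against wt cells, where 15.5% of all probes were higher and 18.3% lower. As means over the probes of a gene, the largest ratios to wt belonged to *Oas1a* (2.93) and *Mx2* (2.86, well above background on 6 of 8 wt arrays), which encode antiviral effectors, followed by *Rsad2*, *Oasl2* (2.25), the chemokine gene *Cxcl10* (1.80) and *Gbp2* (1.75). The mean of 2.33 for *Rsad2* joins 2 discordant probes. One, well above background on all arrays, gave 4.08, more than *Oas1a*, and the other was not well above background on any wt array, so the place of *Rsad2* in this order rests on the averaging. In the difference between the comparisons 13 of the 33 were called, all with the larger ratio against wt cells, where 1.78% of all genes with a symbol were called in this direction and 2.79% in the other. Of these 33 genes 23 were well above background on all wt arrays, compared with 28 on all siScramble arrays.

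**Figure D5:**
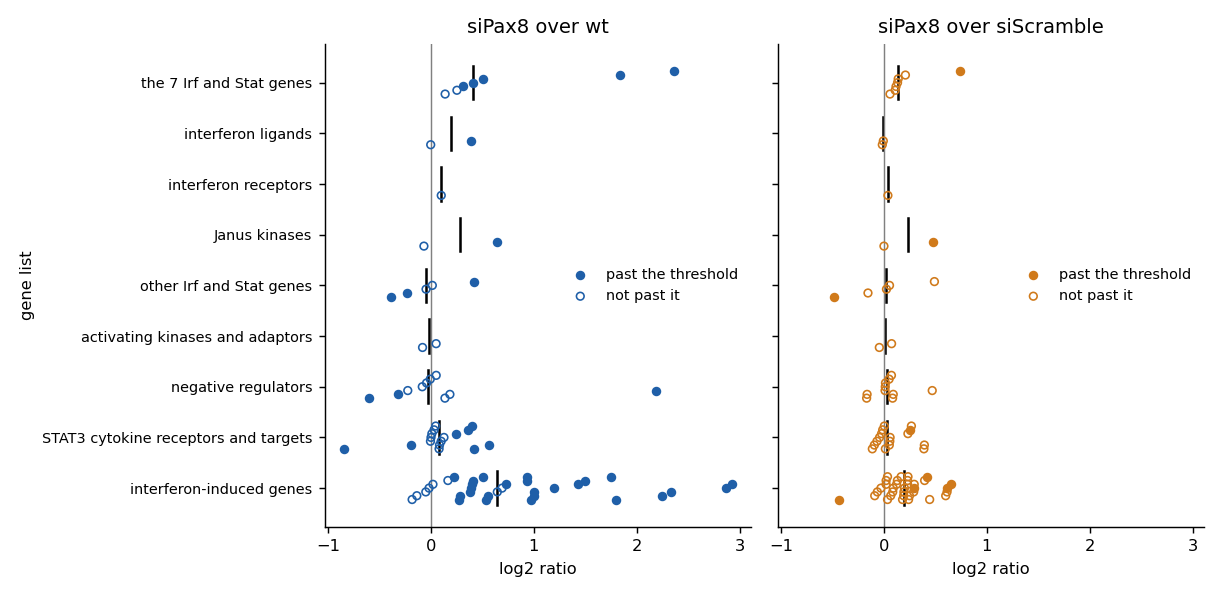
Log2 ratios of the genes of each pathway list against wt (left, blue) and siScramble cells (right, orange). Each circle is 1 gene, as the mean over its probes, filled where all its probes passed a limma adjusted p of 0.005 in 1 direction, and black lines are the list medians. The interferon-induced genes and the 7 *Irf* and *Stat* genes lie mostly to the right of 0 against wt cells, with medians of 0.65 and 0.41.

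The genes most like *Irf7* in the 8 replicate log2 ratios, by root mean square difference among 8891 named genes, were *Ccl2* (0.13), *Rsad2* (0.16) and *Oasl2* (0.19). The likeness of *Rsad2* holds for the mean of its 2 probes, whereas its brighter probe, with 4.08 to wt and 1.04 to siScramble cells, lay far from *Irf7*. *Irf9* was most like *Lgals5* (0.17), *Lgals9* (0.18) and *Cxcl10* (0.19), with mean ratios to wt of 2.03, 1.62 and 1.80 and to siScramble cells of 0.30, 0.23 and 0.09. *Stat2* was most like *Shisa5* (0.07), *Cyp27a1* (0.08) and *Mospd1* (0.09). The likeness describes the size of the ratios over 8 values that share siPax8 samples.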

How the data were processed

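RNA from siPax8 PCCl3 cells was compared with wt and with siScramble cells on 16 Agilent arrays. The authors deposited, per array, raw spot and background intensities of both dyes with processed signals, written by Feature Extraction 10.1.1.1 per the file headers. They also deposited normalized log2 ratios, a set which holds control over siPax8 (correlations of -0.999 to -0.992 with the ratios computed here; column medians between -0.00074 and 0.0083). Its making is described in the methods as loess and quantile normalization with limma.

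Here, mean intensities were corrected by normexp (offset 50) and normalized by loess and quantiles with limma 3.58.1 (R 4.3.3, statmod 1.5.0). Of 45018 spots per array, 1639 controls were removed, and the 112 to 215 outlier spots per array were left out, none of them of the genes reported. Spots of a probe and dye-swapped arrays were averaged, lmFit and eBayes were applied to 4 values, and the study's adjusted p threshold of 0.005 was kept. The number of arrays limits the precision. The script was tested on simulated data.

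Deviations of same-numbered arrays from the replicate mean correlated between dye orientations from 0.12 to 0.47 (wt) and 0.33 to 0.58 (siScramble). Each dye swap was taken as 1 replicate by its number. For replicate 2 of the wt arrays, 0.12 was below its best correlation with another number, 0.20, so its pairing rests on the labels. Between the comparisons same-numbered replicates correlated from 0.04 to 0.57. There replicates 2 and 3 (0.18 and 0.04) correlated better with another number (0.41 each), so the difference was tested without pairing. Accessions were named through RefSeq (10768 probes); gene coordinates were not used, since the array's build differs. The study's tables of fold changes and p-values were used for probe names only. The genes and lists were chosen with earlier results of these data known: all probes of the 9 genes are named, up to 6 genes per list by size of change, and 3 genes nearest in pattern. A gene of the lists is not reported here. Alternatives covered the processed signals, loess alone, the deposited table, dim probes, each dye, replicate, dye and slide terms, 1 fit for both comparisons, leaving out replicates and a threshold of 0.05.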

Additional observations from a re-analysis of the deposited data

Results flagged for a closer look

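The ratio to wt cells differed from that to siScramble cells by limma, on the log2 scale, by 0.38 for *Irf2*, 1.62 for *Irf7* and 1.63 for *Irf9*. Among the 16 groups of 4 replicate ratios, 1 had a replicate far from the others: the *Stat3* probe with 10 copies against wt cells, where replicate 4 stood at 0.17 and the others between 0.25 and 0.26. Chance alone flags about 1 in 20 such groups.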

How the results depend on the processing

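The number of genes called higher against wt cells, 5, was 3 with the signals from Agilent's own processing and 4 to 6 under the other alternatives, with a range of 4 to 6 on leaving out single replicates. Against siScramble cells the number, 1, was 0 with the processed intensities (*Irf7*, limma adjusted p = 0.0203), and it stayed at 1 without any one replicate. It was 2 with siPax8 in Cy3 alone, where *Stat2* also passed (0.26, limma adjusted p = 0.000955). With siPax8 in Cy5 alone *Stat2* had 0.01 (limma adjusted p = 0.948). The calls over all 41012 probes moved as well. Against wt cells 2886 probes were called higher, and 771 with the processed intensities. Against siScramble cells 499 were called higher, 11 with the processed intensities and 1715 with siPax8 in Cy3 alone. In the difference between the comparisons 3 genes were called, and 2 without any one replicate and with the processed intensities. Of all probes 677 were called in this direction, 178 to 527 without any one replicate and 183 with the processed intensities. No gene was called lower under any alternative. *Irf7* and *Irf9* passed against wt cells under all 15 alternatives, with ratios of 2.20 to 2.52 and 1.67 to 2.33, and in the difference under all 10. *Irf1* passed against wt cells under 6 of 15 alternatives. Without replicate 1 its ratio to siScramble cells was -0.01.

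With the replicate block across comparisons, which pairs same-numbered replicates, the *Stat2* difference of 0.27 passed (limma adjusted p = 0.00318) and 4 genes were called. For replicates 2 and 3 that pairing was not borne out by the correlations between the comparisons. With the replicate block on the 8 arrays of a comparison, 6 genes were called against wt and 1 against siScramble cells. Apart from *Stat2* and *Irf1* the block changed no call of a gene. The causes of these changes were not tested. All 8 probes were well above background on all arrays. That of *Irf2* was the dimmest, with a mean log2 intensity of 6.99 in wt cells. The size of its ratio to wt depended on the processing, at 0.51 and, with the processed intensities, 1.26.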
